A study of Mus musculus with 2 samples.

Results

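The 10 genes described here belong to the BMP and TGF-beta pathways in the early postnatal mouse lens epithelium, and are the ligands Bmp4, Bmp7 and Tgfb2, the receptor Tgfbr1, the secreted antagonist Sostdc1, the response genes Id1, Id2 and Id3, the inhibitory Smad gene Smad7, and Thbs1. They were chosen by name and not by a threshold on a measured value, but with earlier results of these data known. The paper on these cells reported Sostdc1 and Tgfb2 as higher in its progenitor cluster. It described Id1 and Thbs1 with its early differentiation cluster. It also reported more Bmp7 earlier in pseudotime, its inferred order of the cells, and less thrombospondin-1 in late than in early differentiating cells. The resting, early and late groups used below rest on markers of the progenitor and the 2 differentiating clusters. These genes' directions between the groups were therefore in part known beforehand. All 10 were found among the 32285 genes of the count tables. The cells came from 2 pools of lens capsule with its adhering epithelium, each peeled from the lenses of 4 to 8 wild-type C57BL/6N pups at postnatal day 2 after the vascular tunic was taken off, and made into 10x Genomics 3′ libraries. There was 1 genotype, 1 age and no treatment, so every comparison was between groups of cells of the same pools. The 2 libraries held 12314 and 9425 barcodes, with medians of 6307 and 8050 unique molecular identifiers (UMIs, counted transcripts) per barcode, and 27 barcode sequences occurred in both.

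BMP and TGF-beta ligands bind pairs of type I and type II serine/threonine kinase receptors, which phosphorylate Smad proteins that enter the nucleus and switch on response genes. BMP signals are needed to form the lens and to turn its epithelial cells into fiber cells at the lens equator, whereas TGF-beta is best known in the lens for driving epithelial cells toward a mesenchymal form in cataract. Id proteins, classical targets of BMP signals, bind basic helix-loop-helix transcription factors and keep them off DNA. Smad7 shuts down activated receptors, Sostdc1 binds BMPs outside the cell and also alters Wnt signals, and Thbs1 encodes thrombospondin 1, a matrix glycoprotein that can activate latent TGF-beta.

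After quality control 18494 cells remained, and each was assigned to a group by the share of its UMIs that fell on fixed marker lists, none of which held any of the 10 genes. The gates held 377 mural cells, 539 endothelial cells, 51 macrophages and 17460 lens epithelial cells (LECs), and 67 cells were left without a group. LECs were divided into 2382 late differentiating cells, in which beta and gamma crystallins and fiber genes made up at least 5% of the UMIs, 2077 early differentiating cells (at least 0.3% on a list with Cdkn1c, Ccdc80 and Rbm24), 1501 S-phase cells, 3012 G2/M cells, 729 cells high in the Notch target Hes5, 5225 resting cells (at least 0.1% on Igfbp5, Slc7a11, Folr1 and Cntf) and 2534 other LECs. Between 372 and 815 LECs lay within 20% of the limits of the late, early, S-phase, G2/M and Hes5 gates, and 2215 lay within 20% of the limit of the resting gate, so the gates cut through gradual distributions. The cell types stood apart. Given as CPM, the UMIs of a gene scaled to a common total per gate and pool (the counts-per-million unit), Cldn5 had 3120 and 3351 CPM in endothelial cells and at most 2.70 CPM in the other gates, and Rgs5 had 16422 and 17559 CPM in mural cells and at most 9.57 CPM elsewhere. Median depth differed between gates, with 11563 and 13002 UMIs in late differentiating, 7173 and 9379 in early differentiating and 5473 and 6882.5 in resting LECs, against 3296.5 and 3455 in mural and 3029 and 3274 in endothelial cells. The pools differed in the size of the S-phase gate, which held 551 cells in replicate 1 and 950 in replicate 2.

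Pairs of values below are replicate 1 and replicate 2. The p-values rest on how far differences between gates varied across these 2 pools, after the mean difference between the pools was taken out. That spread was estimated over all gates of a fit together, with information shared across genes. It had 6 residual degrees of freedom between LEC gates and 3 between cell types. Levels between LEC gates are given as scaled CPM, for which the total of each gate was adjusted by the TMM factor of edgeR, since the median gene of the late gate, rich in crystallin transcripts, lay 0.54 (log2) lower against resting LECs in plain CPM than after scaling. The same shift was -0.47 for late against early LECs, 0.31 for endothelial cells against LECs, 0.22 for mural cells against LECs and under 0.1 in size elsewhere. Log2 fold changes are given with their standard error (SE), and a gene is said to have risen or fallen where the adjusted p of edgeR's quasi-likelihood test was under 0.05 over all 12896 genes tested between LEC gates or all 9835 tested between cell types. The balance of rises and falls over all genes depends on this scaling. Higher calls made up 49.98, 51.7 and 49.5% of all calls in early against resting, late against early and late against resting LECs after TMM scaling, and 39.5, 9.23 and 14.6% in plain CPM. With upper quartile factors they made up 38.8% in late against early, 36.1% in S-phase and 36.7% in G2/M cells (51.7, 51.7 and 49.0% with TMM). In endothelial and mural cells against LECs they made up 45.8 and 48.8% with TMM and 62.2 and 61.1% in plain CPM. No direction of a called member given below turned under these scalings. Of the 10 genes, 9 passed the filter on low counts in both fits, and Bmp4 did not.

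Most of these genes moved with differentiation, but so did much of the transcriptome. In early differentiating against resting LECs, 3 of the 9 tested genes rose and 4 fell, where 42.9% of all genes were called (21.4% higher and 21.4% lower). In late against early cells 2 rose and 6 fell (45.2%, 23.3% and 21.8%), and in late against resting cells 3 rose and 6 fell (65.1%, 32.3% and 32.9%). Against resting LECs, S-phase cells had 3 higher and 3 lower (47.8% of all genes called, 24.7% higher and 23.1% lower), G2/M cells 3 higher and 2 lower (46.8%, 22.9% and 23.9%), and Hes5-high cells 4 higher and 1 lower (5.96%, 3.37% and 2.6%). The median log2 change of the 9 genes was -0.04 for early against resting and -0.57 for late against early, beside medians of -0.00 and -0.03 over all genes tested. The members differed from each other in size and direction of change. Id1 and Id2 rose with differentiation, the antagonist and both testable ligands fell, and Thbs1 rose and then fell.

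**Figure D1:**
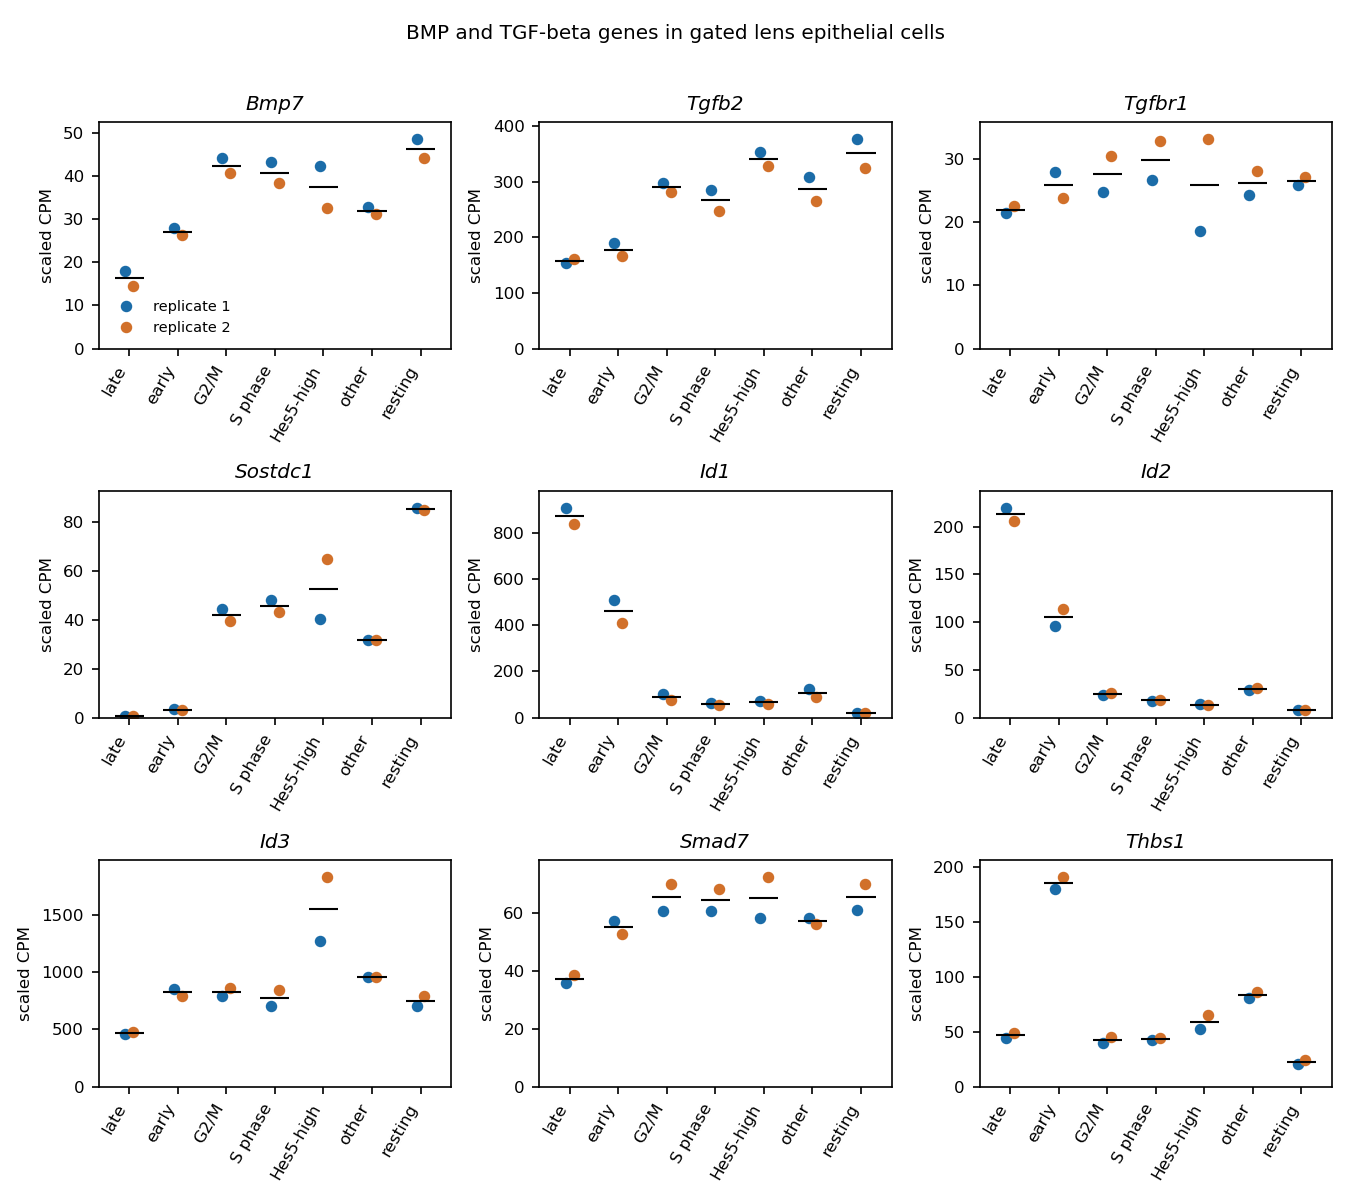
Scaled CPM (vertical axes, from 0) of 9 genes in the 7 LEC gates. Points are the 2 pools and bars their mean. Id1 and Id2 stand highest in the late gate, at 909.6 and 837 scaled CPM for Id1, while Sostdc1, Bmp7 and Tgfb2 have their highest mean in the resting gate and Thbs1 in the early gate.

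Among the ligands, Bmp7 (chr2:172868012-172940321, minus strand, GENCODE vM21 on mm10) encodes a BMP that is needed for lens formation in the mouse embryo. It had 17.99 and 14.6 scaled CPM in late differentiating, 27.9 and 26.4 in early differentiating and 48.7 and 44.2 in resting LECs, so that the 3 gates did not overlap. Bmp7 fell by 0.78 ± 0.08 on the log2 scale in early against resting LECs (adjusted p = 1.7e-08) and by a further 0.73 ± 0.10 in late against early LECs (adjusted p = 2.1e-06). The second step did not pass when each cell was thinned to 3000 UMIs (-0.36, adjusted p = 0.18). In cycling cells it stayed close to the resting level, with 43.2 and 38.3 scaled CPM in S phase and 44.2 and 40.7 in G2/M. The S-phase difference of -0.19 ± 0.08 was past the threshold at an adjusted p of 0.045 but not under 5 of the alternatives, and the G2/M difference of -0.13 ± 0.07 was not past it, although 3 alternatives put it there (-0.19 to -0.36).

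Tgfb2 encodes TGF-beta 2, the isoform whose loss in mice disturbs development of the eye. It lies at chr1:186622792-186705989 on the minus strand. Tgfb2 had 155 and 161 scaled CPM in late, 191 and 166 in early and 378 and 326 in resting LECs. Early against resting LECs fell by 0.98 ± 0.06 (adjusted p = 6.1e-13) and late against resting by 1.16 ± 0.06 (adjusted p = 8.6e-15). The step between late and early was small (-0.18 ± 0.06, adjusted p = 0.018), and was not past the threshold in DESeq2 (adjusted p = 0.11), without the replicate block (0.22) or with gate limits 1.5 times higher (0.30). S-phase cells, with 286 and 248 scaled CPM, and G2/M cells, with 298 and 282, were lower than resting LECs by 0.40 ± 0.06 and 0.28 ± 0.05 (adjusted p = 2.1e-06 and 1.1e-04). Tgfb2 was the ligand found in most cells, with at least 1 UMI in 66.1 and 68.4% of late and 85.4 and 84.6% of resting LECs, and in 28.7 and 27.7% against 68.4 and 61.7% after thinning to 3000 UMIs. Macrophages, which should lack it, had a UMI in 4.00 and 3.85% of cells (median depth 3663 and 4323 UMIs).

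The bases before the RefSeq start sites (GRCm38.p6) of a ligand that fell, of the receptor and of a response gene that rose are shown so that 2 motifs known to be bound by Smad proteins can be set beside the expression data. Capitals mark GGCGCC, a GC-rich element bound by BMP-type Smads, and CAGAC or its reverse complement GTCTG, which holds the core Smad box. Both strands were searched, the motifs do not overlap each other, and each sequence runs 5′ to 3′ on the gene's strand and stops where a GENCODE vM21 exon begins.
Tgfb2: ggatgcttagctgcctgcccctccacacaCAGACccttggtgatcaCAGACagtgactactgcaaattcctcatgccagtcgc
Tgfbr1: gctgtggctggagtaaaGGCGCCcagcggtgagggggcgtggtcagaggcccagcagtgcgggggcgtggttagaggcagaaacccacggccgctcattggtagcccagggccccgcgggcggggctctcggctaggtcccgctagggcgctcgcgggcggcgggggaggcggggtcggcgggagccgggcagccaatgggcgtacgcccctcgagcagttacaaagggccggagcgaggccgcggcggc
Id2: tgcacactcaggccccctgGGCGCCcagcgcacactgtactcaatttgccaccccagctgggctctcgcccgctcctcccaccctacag
The Tgfb2 stretch is chr1:186706157-186706239 on the minus strand and holds 2 CAGAC and no GGCGCC. The Id2 stretch is chr12:25096254-25096342 on the minus strand, lies in an intron of a longer annotated Id2 transcript, and holds 1 GGCGCC and no CAGAC. The Tgfbr1 stretch, before the upstream one of its annotated starts, is chr4:47352972-47353221 on the plus strand, with 1 GGCGCC and no CAGAC. The 250 bases before its other RefSeq start, chr4:47385966-47386215, hold 1 CAGAC and no GGCGCC and are not printed. Of 32851 RefSeq promoters, 16.5% hold CAGAC or GTCTG in a window as long and as far upstream as that of Tgfb2, 2.73% hold GGCGCC in one like that of Id2, and 9.59% hold GGCGCC and 42.2% CAGAC or GTCTG in 250 bases as for Tgfbr1. RefSeq start-site sequences were at hand for 5 of the 10 genes. That of Id3 is not shown because it lies wholly within an annotated exon.

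Bmp4 (chr14:46383520-46390669, minus strand), the other BMP of early lens development, was close to absent from these libraries, with 27 UMIs in all 18494 cells. Mural cells had 2 and 3 UMIs, endothelial cells 3 and 9, macrophages 0 and 0, and the 17460 LECs 4 and 6. Over both pools this was 3.90 CPM in mural cells and 5.00 CPM in endothelial cells against 0.074 CPM in LECs. The ratio was 52.7 (95% exact interval 14.1 to 169) for mural cells and 67.6 (26.8 to 175) for endothelial cells, where the intervals cover counting error only. The endothelial ratio was 36.7 in replicate 1 alone and 102 in replicate 2 alone. Without the filter on low counts, Bmp4 passed edgeR's test in both comparisons with LECs (adjusted p = 0.0069 for mural and 5.5e-06 for endothelial cells), and the mural-to-endothelial ratio of 0.779 (0.215 to 2.37) was not resolved at this depth.

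The other pathway ligands were 14 genes fixed as a list, of which 7 were tested between LEC gates. In early against resting LECs 2 rose and 1 fell (21.4% and 21.4% of all genes), in late against early LECs 1 rose and 3 fell (23.3% and 21.8%), and in late against resting LECs 3 rose and 1 fell (32.3% and 32.9%). The activin subunits moved in opposite directions between resting and differentiating cells. Inhbb, the beta B subunit, had 18.4 and 24.8 scaled CPM in early and 0.749 and 0.213 in resting LECs, a rise of 5.30 ± 0.28 (adjusted p = 1.3e-13), and was lower in late than in early cells by 1.39 ± 0.18 on the log2 scale. Inhba, the beta A subunit, had 5.47 and 8.19 scaled CPM in late, 50.8 and 42.4 in early and 73.2 and 76.2 in resting LECs, and was lower in late than in resting LECs by 3.47 ± 0.12 (adjusted p = 1.3e-17). Gdf15, a distant TGF-beta relative known as a stress-responsive hormone, was higher than in resting LECs in S phase (1.57 ± 0.13), in G2/M (0.99 ± 0.12) and in Hes5-high cells (0.70 ± 0.20). Gdf11, an activin-type ligand, was lower than in resting LECs in S phase (-0.98 ± 0.16) and in G2/M (-0.65 ± 0.13).

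Tgfbr1, the type I receptor of TGF-beta (chr4:47353222-47414931, plus strand), had the smallest change of the 9 tested genes in early and in late against resting LECs. It had 21.5 and 22.6 scaled CPM in late, 28.0 and 23.9 in early and 26.0 and 27.2 in resting LECs. Early and resting cells overlapped (-0.04 ± 0.11, adjusted p = 0.83). Late and early cells did not differ past the threshold (-0.24 ± 0.12, adjusted p = 0.13), but did with upper quartile factors (0.034) and in plain CPM (1.4e-04). Late cells were lower than resting cells by 0.27 ± 0.11 (adjusted p = 0.035), a difference that was not past the threshold in DESeq2 (adjusted p = 0.23), without the replicate block (0.18) or after thinning (0.26). None of the S-phase, G2/M and Hes5-high gates differed from resting LECs past the threshold, with changes between 0.02 and 0.18. Hes5-high cells spread widely, at 18.7 and 33.3 scaled CPM.

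Of the 11 other receptors and co-receptors fixed as a list, 9 were tested between LEC gates. In early against resting LECs 2 rose and 2 fell (21.4% and 21.4% of all genes), in late against early LECs 1 rose and 2 fell (23.3% and 21.8%), and in late against resting LECs 2 rose and 2 fell (32.3% and 32.9%). Their median log2 changes in these comparisons were 0.02, 0.14 and 0.12, beside -0.00, -0.03 and -0.03 over all genes tested. Between cell types some receptors differed widely. In plain CPM, Tgfbr2, the type II receptor that TGF-beta needs, had 24.0 and 43.1 CPM in mural and 91.9 and 105 CPM in endothelial cells against 0.084 and 0.078 CPM in LECs, where 11 UMIs were counted in 17460 cells. The 2 vascular types were 8.36 ± 0.49 and 9.80 ± 0.33 (log2) above LECs (adjusted p = 2.1e-13 and 2.1e-18). Eng, the co-receptor endoglin, had 246 and 222 CPM in mural and 1004 and 1010 CPM in endothelial cells against 0.953 and 0.752 CPM in LECs, and Acvrl1, the endothelial type I receptor ALK1, had 57.3 and 64.7 CPM in mural and 202 and 205 CPM in endothelial cells against 0.519 and 0.407 CPM in LECs. The BMP type I receptor Bmpr1a went the other way in 1 vascular type, with 66.5 and 56.6 CPM in mural, 0.69 and 3.20 CPM in endothelial cells and 50.5 and 49.4 CPM in LECs. It was 5.28 ± 0.47 (log2) higher in mural than in endothelial cells (adjusted p = 2.1e-09).

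**Figure D2:**
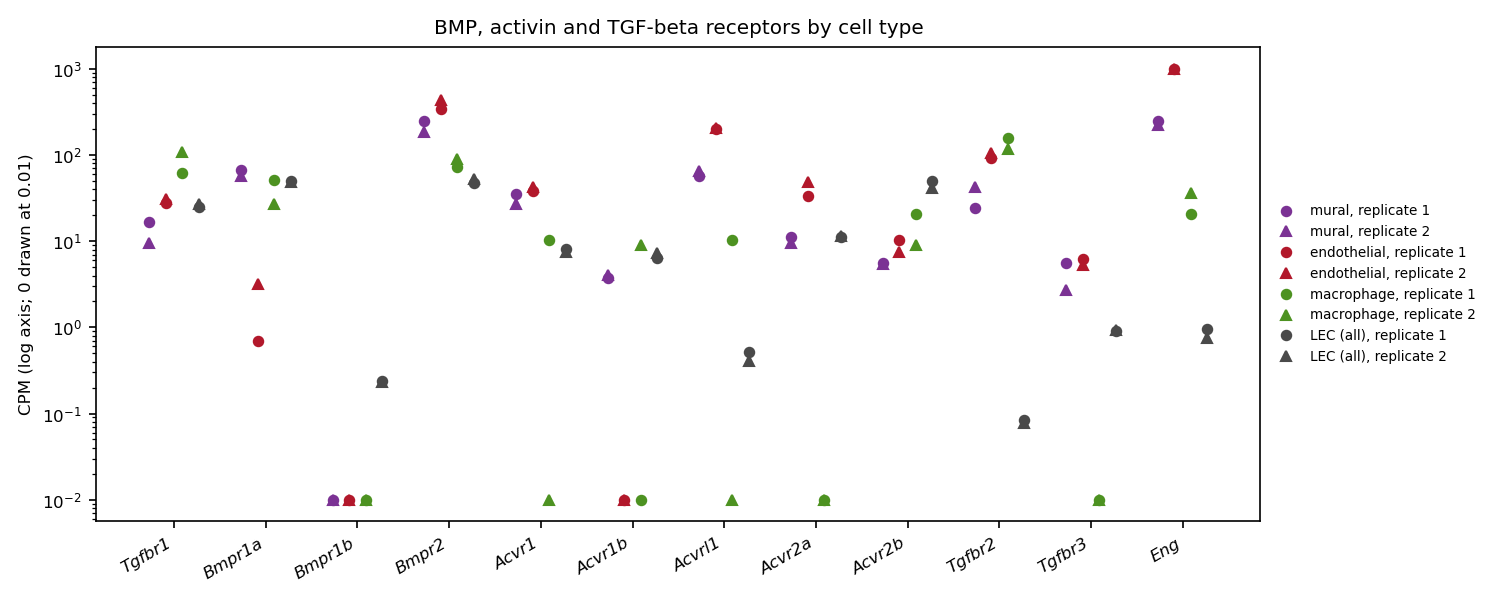
Plain CPM on a logarithmic axis of Tgfbr1 and the 11 receptors and co-receptors of the list in mural, endothelial, macrophage and all LECs. Circles are replicate 1 and triangles replicate 2, and a level of 0 is drawn at 0.01. Tgfbr1 and Bmpr2 are found in all 4 cell types, Tgfbr2, Acvrl1 and Eng stand at or below 1 CPM in LECs, and Bmpr1a is low in endothelial cells.

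Sostdc1 (chr12:36314139-36318452, plus strand) showed the steepest fall with differentiation. It had 0.70 and 0.52 scaled CPM in late, 3.30 and 2.98 in early, 48.1 and 43.1 in S-phase, 44.5 and 39.4 in G2/M, 40.4 and 64.6 in Hes5-high and 85.7 and 84.9 in resting LECs. Other LECs had 31.5 and 31.8, below S-phase, G2/M and Hes5-high cells and above early cells. Resting LECs were above every other gate in both pools. Sostdc1 was lower in early than in resting LECs by 4.75 ± 0.15 on the log2 scale (27.0-fold, adjusted p = 1.0e-17) and in late than in resting LECs by 7.08 ± 0.19 (adjusted p = 1.8e-19). The fall was smaller in S-phase (-0.92 ± 0.09), G2/M (-1.02 ± 0.08) and Hes5-high cells (-0.64 ± 0.12), all past the threshold. Between late and early cells the change of -2.32 ± 0.46 (adjusted p = 2.3e-04) rested on 8 and 5 UMIs in late and 29 and 25 in early cells, was not past the threshold after thinning or with gate limits 1.5 times higher, and turned to 0.26 (adjusted p = 0.58) with limits 1.5 times lower. By cells, at least 1 UMI was found in 0.513 and 0.491% of late, 2.48 and 2.75% of early and 35.6 and 40.3% of resting LECs, or 0.447 and 0.203%, 0.962 and 0.904%, and 22.3 and 21.1% of cells thinned to 3000 UMIs.

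Outside the epithelium Sostdc1 was not seen above counting noise. No UMI was found in 539 endothelial cells or 51 macrophages and 1 in 377 mural cells, against 42.1 and 38.9 CPM in all LECs. With a floor of 3 UMIs over the group, Sostdc1 was at least 32.4-fold lower in endothelial cells than in LECs. For mural cells the single UMI gave a level 52.1-fold lower than in LECs, with a counting interval of 9.34 to 2056.

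The 19 other antagonists and ligand-binding proteins fell more often than they rose, as Sostdc1 did. Of the 16 tested, 2 rose and 9 fell in early against resting LECs, where 21.4% of all genes rose and 21.4% fell. In late against early LECs 3 rose and 6 fell (23.3% and 21.8% of all genes), and in late against resting LECs 3 rose and 10 fell (32.3% and 32.9%). The median log2 change of the list was -0.51 in early and -0.56 in late against resting LECs, beside -0.00 and -0.03 over all genes. Chrdl1, the secreted BMP binder chordin-like 1, followed Sostdc1 closely, with 0.70 and 0.31 scaled CPM in late, 2.28 and 2.03 in early and 32.8 and 31.8 in resting LECs (late against resting -5.92 ± 0.21, adjusted p = 2.7e-17). Bmper, a secreted protein that binds BMPs and can hinder or help them, went the opposite way, with 49.1 and 55.9 scaled CPM in late, 6.94 and 11.2 in early and 0.35 and 0.28 in resting LECs (late against resting 7.27 ± 0.21, adjusted p = 6.9e-19). Fstl3, which binds activins, was higher than in resting LECs in S-phase (0.93 ± 0.11) and G2/M cells (0.47 ± 0.11).

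Smad7 (on chromosome 18), itself a target of both branches of the pathway and a brake on their receptors, fell late. It had 35.9 and 38.4 scaled CPM in late, 57.4 and 52.9 in early and 61.2 and 70.1 in resting LECs. Late cells were lower than early cells by 0.57 ± 0.09 (adjusted p = 1.1e-05) and lower than resting cells by 0.82 ± 0.08 (adjusted p = 3.7e-09). The step between early and resting LECs was -0.24 ± 0.08 (adjusted p = 0.013) and was not past the threshold in DESeq2 (0.10), without the replicate block (0.11), with limits 1.5 times lower (0.10) or after thinning (0.18). S-phase, G2/M and Hes5-high cells differed from resting LECs by -0.01, -0.00 and 0.02 on the log2 scale. Of the 12 other Smads, co-repressors and Smad ubiquitin ligases fixed as a list, 11 were tested. In early against resting LECs 3 were called, and all rose (42.9% of all genes called, 21.4% higher). In late against early LECs 1 rose and 2 fell (23.3% and 21.8%), and in late against resting LECs 2 rose and 3 fell (32.3% and 32.9%).

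Id1 (chr2:152736251-152737410, plus strand) had the largest rise of the 9 genes. It had 909.6 and 837 scaled CPM in late, 510.1 and 410.2 in early, 122 and 89.7 in other LECs, 63.1 and 54.5 in S-phase, 100.0 and 76.0 in G2/M, 71.8 and 60.6 in Hes5-high and 20.0 and 17.5 in resting LECs. In both pools the order was late, early, G2/M and then resting, with no overlap among these 4 gates. Other LECs overlapped G2/M cells, and S-phase overlapped Hes5-high cells. Early cells were 24.6-fold above resting LECs (log2 4.62 ± 0.07, adjusted p = 2.1e-23) and late cells 46.9-fold (5.55 ± 0.07, adjusted p = 1.5e-25), and late cells were 0.93 ± 0.05 above early cells (adjusted p = 8.8e-13). Id1 was also higher than in resting LECs in G2/M (2.23 ± 0.08), S-phase (1.66 ± 0.09) and Hes5-high cells (1.83 ± 0.12). The share of cells with the transcript changed too. At 3000 UMIs per cell, 80.0 and 74.8% of late, 67.2 and 58.0% of early and 5.36 and 5.17% of resting LECs had an Id1 UMI, and without thinning 96.04 and 94.3%, 84.4 and 85.0%, and 8.75 and 9.78%. The share in macrophages, which carried 1 Id1 UMI in 51 cells, was 0 and 5.26% of the 16 and 19 cells that could be thinned. These are too few cells to set a background, so the share in resting LECs could not be told from background in either pool.

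Id2 (chr12:25093799-25097140, minus strand) also stood highest in late, then early cells, at a lower level. It had 219.6 and 206 scaled CPM in late, 96.1 and 114 in early, 28.6 and 30.6 in other LECs, 23.9 and 26.1 in G2/M, 17.1 and 18.8 in S-phase, 13.7 and 13.0 in Hes5-high and 7.64 and 7.88 in resting LECs, with no overlap between any of these gates. It rose by 3.75 ± 0.09 in early against resting LECs (adjusted p = 1.1e-19) and by a further 1.02 ± 0.06 in late against early LECs (adjusted p = 3.5e-12). At 3000 UMIs per cell 34.4 and 34.0% of late, 22.2 and 26.7% of early and 2.43 and 2.80% of resting LECs had an Id2 UMI. The lowest share outside LECs was 4.00 and 1.41% in mural cells, but their 9.24 and 10.8 CPM of Id2 lay above the 2.66 and 2.68 CPM that free lens RNA could carry (estimated below from alpha-crystallin transcripts), so no gate gave a background share for Id2. The rise in Hes5-high cells (0.76 ± 0.22, adjusted p = 0.040) was not past the threshold after thinning (0.56, adjusted p = 0.44).

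Id3 (chr4:136143497-136145755, plus strand) did not follow Id1 and Id2. It had 457 and 477 scaled CPM in late, 852 and 798 in early, 1279.7 and 1839 in Hes5-high and 706 and 792 in resting LECs. Late cells were lower than both early cells (-0.82 ± 0.08, adjusted p = 1.3e-08) and resting cells (-0.68 ± 0.08, adjusted p = 8.8e-08). Early and resting LECs did not differ past the threshold (0.14 ± 0.08, adjusted p = 0.15), although 3 alternatives gave adjusted p of 0.029 to 0.038 at changes of 0.12 to 0.23. Hes5-high cells stood above every other LEC gate in both pools, 1.06 ± 0.08 above resting LECs (adjusted p = 3.8e-09). Id3 was found in most LECs whatever their gate, with a UMI in 80.9 and 83.9% of late, 96.6 and 97.4% of early and 83.1 and 90.1% of resting LECs, and in 26.9 to 28.0% of macrophages.

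Other targets of the pathway, 14 genes fixed as a list and all tested between LEC gates, moved both ways. In early against resting LECs 6 rose and 4 fell (21.4% and 21.4% of all genes), in late against early LECs 3 rose and 7 fell (23.3% and 21.8%), and in late against resting LECs 5 rose and 7 fell (32.3% and 32.9%). Id4, the fourth Id gene, was 1.70 ± 0.12 higher in late than in early cells, at 44.1 and 35.3 against 13.2 and 11.1 scaled CPM. Hey1, a repressor induced by Notch and BMP signals, rose by 2.00 ± 0.07 in early against resting LECs and by 2.27 ± 0.08 in Hes5-high cells, where Hes1 also rose (1.44 ± 0.05). Ccn2, the connective tissue growth factor induced by TGF-beta, fell. It had 14.0 and 8.50 scaled CPM in late, 34.0 and 21.4 in early and 155 and 165 in resting LECs (late against resting -3.79 ± 0.18, adjusted p = 5.0e-15). Tsc22d1, a leucine zipper gene first found as induced by TGF-beta, had 179 and 132 scaled CPM in late and 1536 and 1307 in resting LECs (-3.20 ± 0.08, adjusted p = 3.8e-20), and was also lower in S-phase (-1.01 ± 0.07) and G2/M cells (-0.57 ± 0.07).

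Thbs1 (chr2:118111876-118127133, plus strand) marked the early step. It had 44.1 and 48.9 scaled CPM in late, 180.0 and 191 in early, 42.1 and 44.2 in S-phase, 39.5 and 44.9 in G2/M, 52.6 and 65.2 in Hes5-high and 20.6 and 23.7 in resting LECs. Early cells were above all other gates in both pools, and other LECs came next at 80.5 and 86.2 scaled CPM. Thbs1 rose by 3.07 ± 0.06 in early against resting LECs (8.40-fold, adjusted p = 2.6e-21) and fell by 2.00 ± 0.06 in late against early LECs (adjusted p = 8.0e-18). It was also higher than in resting LECs in S-phase (0.96 ± 0.08), G2/M (0.93 ± 0.07) and Hes5-high cells (1.43 ± 0.10). Late cells as a whole were above resting cells by 1.07 ± 0.07 (adjusted p = 8.4e-12), but with gate limits 1.5 times higher the difference was 0.21 (adjusted p = 0.12).

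The order of these changes was followed by dividing the early and late gates by the share of UMIs from the late list of beta and gamma crystallins and fiber genes, and expressing each gene as adjusted CPM, CPM computed on the UMIs outside that list. The 6 stages were resting LECs (3293 and 1932 cells), early cells with under 2.5% (264 and 192) and 2.5 to 5% (904 and 717), and late cells with 5 to 10% (577 and 508), 10 to 20% (632 and 434) and at least 20% (155 and 76). Median depth went up with stage to 13594.5 and 15346 UMIs at 10 to 20% and was 10232 and 11337.5 at the last stage. Barcodes above 20198 UMIs had been removed in quality control, so the stages hold no cells above that depth. Which stages the removed barcodes would have joined was not tested. These levels are a description, without a test. The stages leave out the other LECs and the S-phase, G2/M and Hes5-high cells. Relative to scaled CPM, adjusted CPM lowers the late stages for rising and falling genes alike.

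By the first early stage Sostdc1 had made most of its fall from the resting gate. Other LECs, which are not among the stages, stood between resting and early cells. From the second early stage on Sostdc1 rested on 17 UMIs or fewer per stage and pool. It went through 94.7, 6.99, 2.59, 0.746, 0.275 and 1.71 adjusted CPM in replicate 1 and 90.4, 6.02, 2.32, 0.188, 0.55 and 1.73 in replicate 2. Id1 went through 22.1, 430.03, 571, 706, 789 and 814 in replicate 1 and 18.6, 277, 460.3, 664, 737 and 727 in replicate 2. On this measure, which lowers late stages, Id1 leveled off over the last stages. Id2 kept climbing to the end, through 8.45, 72.8, 109.7, 141, 199 and 283 in replicate 1 and 8.40, 96.3, 123, 146, 186 and 293 in replicate 2. Id3 was above its resting level at the first early stage in both pools and declined after it, through 780.3, 1034, 871, 521, 311 and 176 in replicate 1 and 844, 897, 803, 489, 342 and 129.5 in replicate 2. Id2 thus stood highest, and Id3 lowest, in the cells richest in crystallin transcripts.

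Over these stages, which leave out the intermediate other LECs, Thbs1 peaked at the first early stage. It went through 22.7, 228, 181, 83.6, 7.85 and 2.56 adjusted CPM in replicate 1 and 25.3, 237, 187, 76.0, 11.0 and 1.73 in replicate 2. At the last stages it lay below the resting level in both pools, which the mean over the whole late gate does not show. Bmp7, Tgfb2 and Smad7 declined by smaller steps, except that Smad7 stood at 71.7 at the first early stage in replicate 1. From the resting to the last stage Bmp7 had 53.8 and 10.2 adjusted CPM in replicate 1 and 47.1 and 8.63 in replicate 2, Tgfb2 417 and 76.0 in replicate 1 and 347 and 70.8 in replicate 2, and Smad7 67.6 and 19.6 in replicate 1 and 74.7 and 15.5 in replicate 2. Tgfbr1 had 28.7 and 11.95 in replicate 1 and 29.0 and 24.2 in replicate 2, where the last stage held 14 UMIs in each pool. The last stage also held few UMIs of Bmp7 (12 and 5), Smad7 (23 and 9) and Thbs1 (3 and 1).

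**Figure D3:**
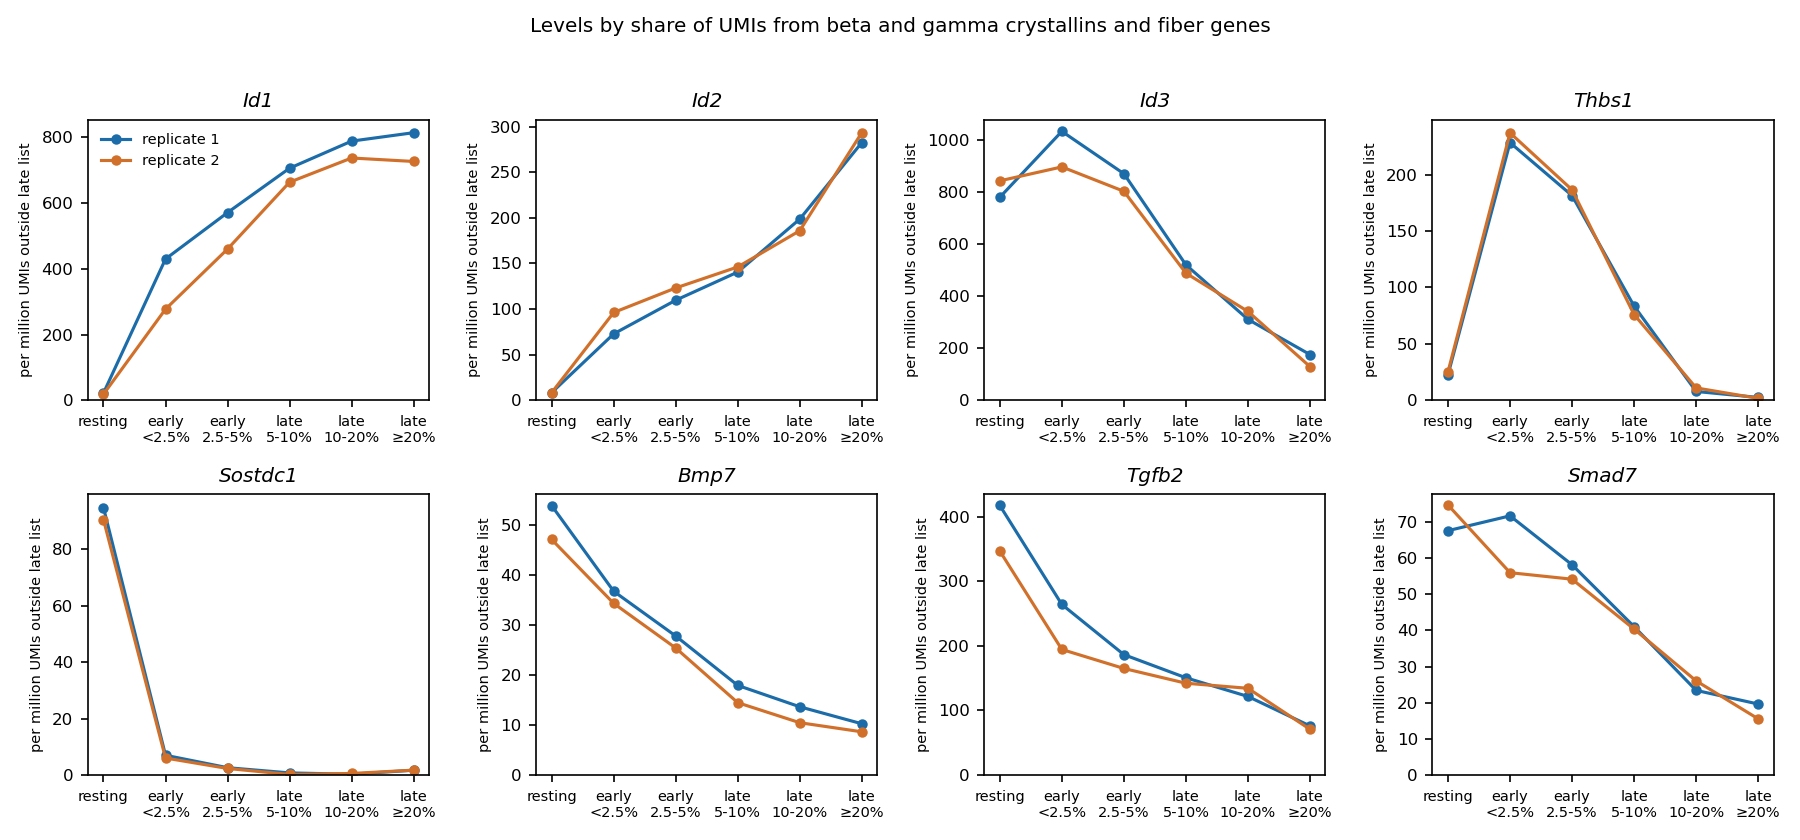
Levels of 8 genes in adjusted CPM, CPM computed on the UMIs outside the late list (vertical axes, from 0) at 6 stages from resting LECs through early to late differentiating cells, which are divided by the percentage of UMIs on the late list. Each line is 1 pool. Id1 and Id2 go up, Id3 goes down after the first early stage, and Sostdc1 is low from the first early stage on. Thbs1 peaks at the first early stage at 228 and 237 adjusted CPM. Other LECs are not among the stages.

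In the vascular cells that came off with the capsule, Bmp7 and Sostdc1 were close to absent. Against all LECs together, Id1, Id2, Id3 and Smad7 were higher in endothelial cells. In mural cells Id3 was higher, Id2 lower, and Id1 and Smad7 not past the threshold. Lens RNA outside LECs was low. Alpha-crystallin transcripts stood at 4.45 and 4.57% of their LEC level in mural cells, 2.24 and 2.32% in endothelial cells and 4.08 and 3.07% in macrophages, and the same percentages of each gene's LEC level were taken as the amount that free lens RNA could carry. Against LECs, 1 of 9 genes was higher and 6 were lower in mural cells, where 54.8% of all genes were called (26.7% higher and 28% lower), and 4 were higher and 4 lower in endothelial cells (62.9%, 28.8% and 34.1%). In mural against endothelial cells 2 were higher and 5 lower (35.8%, 19.4% and 16.4%).

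Id1 had 266 and 269.6 CPM in mural and 619.5 and 1083.5 CPM in endothelial cells, 0 and 9.08 CPM in macrophages and 259 and 217 CPM in all LECs. Endothelial cells were above LECs by 1.48 ± 0.15 (log2, adjusted p = 5.6e-09), with 0.92 in replicate 1 and 2.03 in replicate 2, so the pools disagreed on the size. Mural cells and all LECs together did not differ past the threshold (-0.08 ± 0.18, adjusted p = 0.75). Within LECs, however, Id1 ranged from 21.6 and 18.2 CPM in resting to 660 and 620 CPM in late cells. The late gate overlapped endothelial cells and lay above mural cells in both pools. An Id1 UMI was found in 41.5 and 46.9% of mural and 67.5 and 83.1% of endothelial cells.

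Id3 had 3090.4 and 2754 CPM in mural, 1057 and 1211 CPM in endothelial, 72.7 and 72.7 CPM in macrophages and 753 and 816 CPM in all LECs. Mural cells were above LECs by 1.67 ± 0.09 (adjusted p = 2.4e-14) and above endothelial cells by 1.45 ± 0.09 (adjusted p = 2.2e-12), and an Id3 UMI was found in 98.8 and 97.7% of mural cells. The endothelial difference from LECs was 0.22 ± 0.09 (adjusted p = 0.033), and 5 alternatives gave an adjusted p of 0.060 to 0.20. Id2 ran the other way between the vascular types, with 9.24 and 10.8 CPM in mural, 108 and 146 CPM in endothelial cells and 59.7 and 58.8 CPM in LECs (mural against endothelial -3.54 ± 0.32, adjusted p = 2.7e-09). The 3 Id genes thus had 3 different orders across cell types.

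Smad7 had 51.7 and 86.3 CPM in mural, 102 and 136 CPM in endothelial, 20.8 and 27.3 CPM in macrophages and 55.9 and 59.98 CPM in LECs. Endothelial cells were above LECs by 0.70 ± 0.14 (adjusted p = 1.4e-04). Mural cells were below endothelial cells by 0.66 ± 0.21 (adjusted p = 0.015), which DESeq2 did not call (0.087), and overlapped LECs. Of the 11 other Smads and co-repressors tested, 8 were higher and 1 was lower in endothelial cells than in LECs (28.8% and 34.1% of all genes), and 4 were higher and 1 lower in mural cells than in LECs (26.7% and 28%).

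Tgfb2 was shared by lens and vessels, with 166 and 151 CPM in mural, 287 and 237 CPM in endothelial and 286 and 248 CPM in all LECs. Mural cells were below LECs by 0.97 ± 0.12 (adjusted p = 3.3e-07). The endothelial difference was -0.34 ± 0.10 (adjusted p = 0.0060) after scaling and -0.02 (adjusted p = 0.86) in plain CPM, so it rested on the scaling. Macrophages had 10.4 and 9.08 CPM, close to the 11.7 and 7.60 CPM that free lens RNA could carry. Bmp7, by contrast, had no UMI in mural cells and 1 and 1 UMI in endothelial cells, against 37.4 and 33.1 CPM in LECs. This was at least 15.1-fold lower in mural cells, and 42.4-fold lower (counting interval 11.7 to 350.1) in endothelial cells, whose 0.69 and 1.06 CPM were near the 0.84 and 0.77 CPM of free lens RNA.

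Thbs1 separated the vascular types, with 38.8 and 55.3 CPM in mural, 3.43 and 2.13 CPM in endothelial cells and 58.5 and 64.3 CPM in LECs. Mural cells were 16.6-fold above endothelial cells by summed UMIs (counting interval 7.57 to 42.9), with 11.3 in replicate 1 alone and 26.0 in replicate 2 alone. The deficit of mural cells against LECs (-0.58 ± 0.23, adjusted p = 0.033) was not past the threshold in DESeq2 or in plain CPM. In macrophages Thbs1 had 229 and 90.8 CPM, but 22 and 10 UMIs from 25 and 26 cells. Tgfbr1 had 16.6 and 9.44 CPM in mural, 28.1 and 30.8 CPM in endothelial, 62.3 and 109 CPM in macrophages and 24.8 and 27.3 CPM in LECs, and mural cells were lower than LECs by 1.29 ± 0.35 (adjusted p = 0.0028). The mural level rested on 9 and 7 UMIs, and the log2 change was -0.83 in replicate 1 and -1.72 in replicate 2. No test was run for the 51 macrophages.

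**Figure D4:**
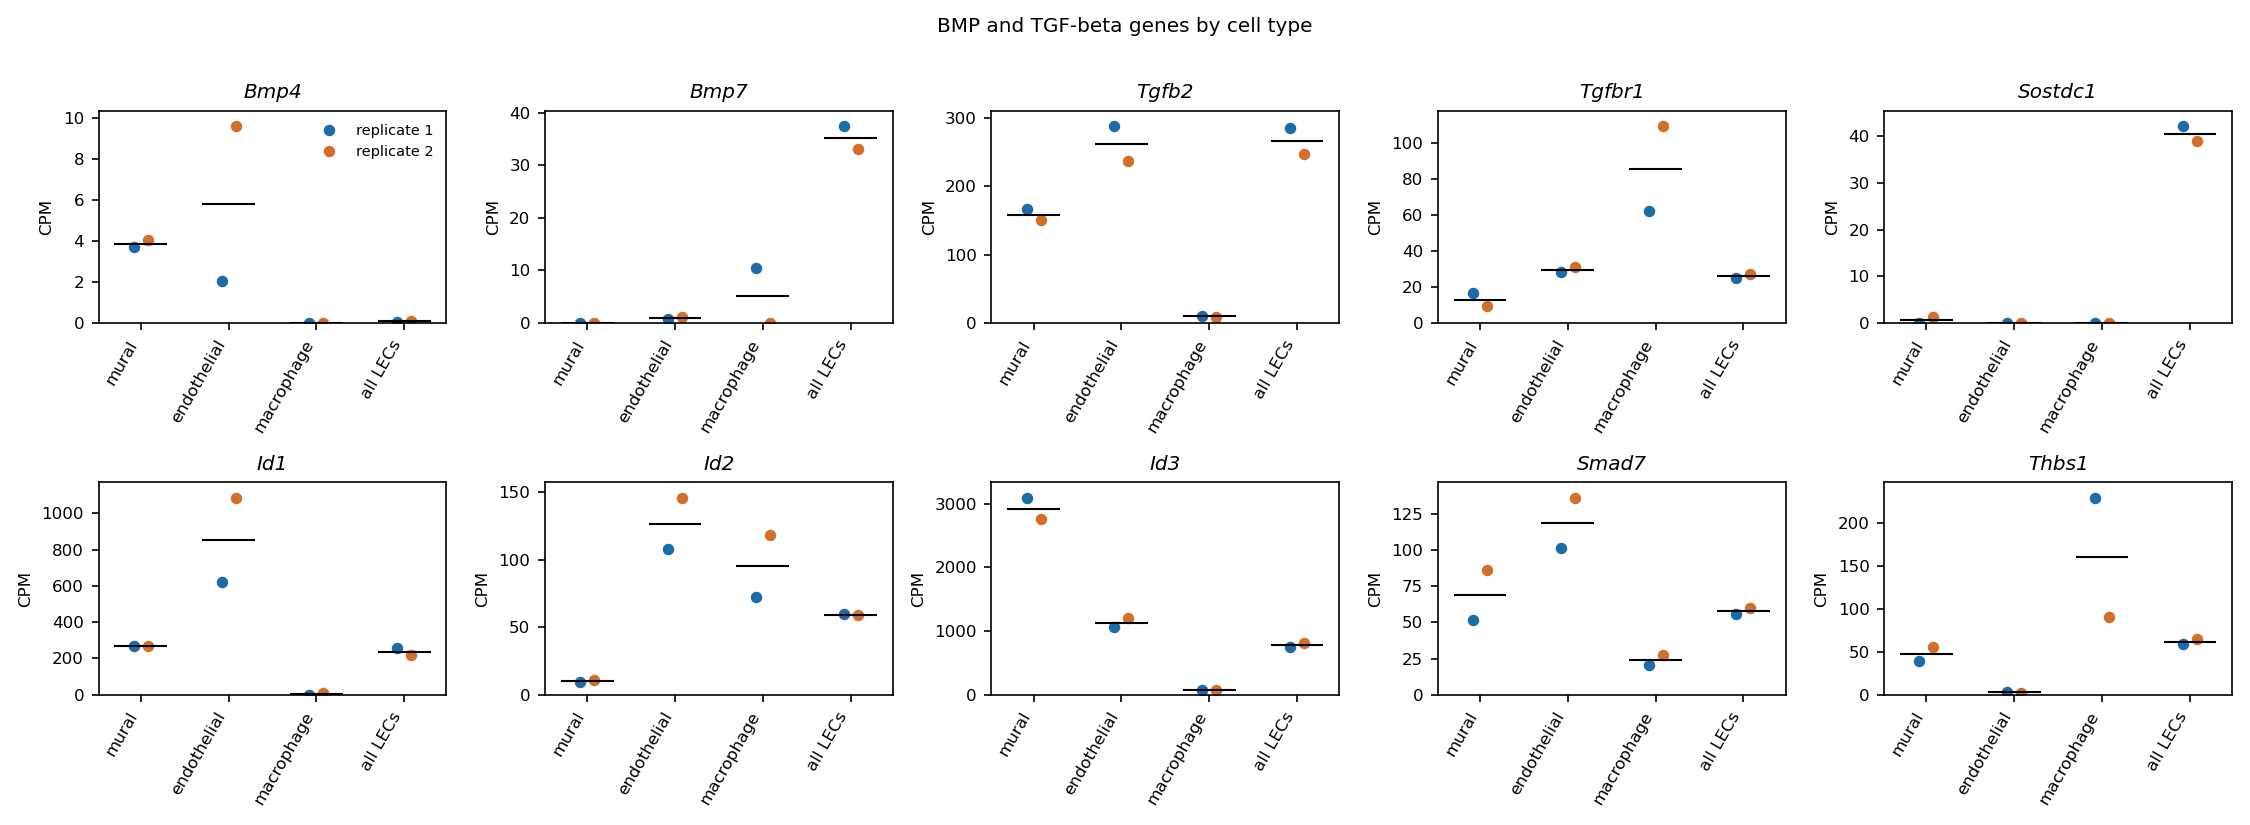
Plain CPM (vertical axes, from 0) of the 10 genes in mural cells, endothelial cells, macrophages and all LECs. Points are the 2 pools and bars their mean. Id1, Id2 and Smad7 have their highest means in endothelial cells and Id3 in mural cells, Bmp7 and Sostdc1 stand highest in LECs, and the 51 macrophages have the highest Tgfbr1 and Thbs1.

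Among other pathway ligands, Bmp5 was the clearest in the vascular cells. It had 32 UMIs in mural cells, none in endothelial cells and 2 in LECs, which is 24.9 CPM in mural cells and at least 19.9-fold higher than in endothelial cells. Of the targets, Tgfbi, a matrix protein induced by TGF-beta, was 3.83 ± 0.39 (log2) higher in mural than in endothelial cells and 7.06 ± 0.32 higher in mural cells than in LECs. Nbl1, a secreted BMP antagonist of the DAN family, and Thbs2, the second thrombospondin, were higher in mural than in endothelial cells by 5.50 ± 0.27 and 3.79 ± 0.57. Inhba (3 UMIs in each vascular type) and Chrdl1 (none in endothelial cells, 1 UMI in mural cells) were, like Bmp7 and Sostdc1, mostly in LECs. Chrdl1 was at least 15.4-fold lower in endothelial cells than in LECs.

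Genes with the most similar profile were found by Pearson correlation of log2(CPM + 1) over the 20 sums of 10 gates in 2 pools, among 8635 genes with at least 20 CPM in a gate. The sums share pools, and 7 of the 10 gates are of LECs, so r is a description only. Sostdc1 was most like Kcnk1, Vsnl1 and Calca (r = 0.99, 0.99 and 0.98), Bmp7 like Kcnj12, Spint2 and Col4a3 (0.99, 0.98 and 0.98) and Tgfb2 like Gulp1, Proser2 and Ampd2 (0.99, 0.99 and 0.98). Id1 was most like Plec, Jag1 and Agfg1 (0.91, 0.89 and 0.89), Id2 like Ank, Zfpm1 and Etv5 (0.91, 0.90 and 0.85) and Id3 like Tspan12, Col4a1 and Cdc42ep4 (0.96, 0.96 and 0.96). Jag1 encodes a Notch ligand and Etv5 a transcription factor induced by FGF signals. Thbs1 was most like St6galnac6, Galnt7 and Prkcd (0.88, 0.87 and 0.86), and none of the genes named here is one of the gate markers.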

How the data were processed

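Droplet RNA counts of 2 pools of P2 lens epithelium were used. The authors made 10x Genomics 3′ v3.1 libraries and deposited filtered tables of raw UMI counts, made with Cell Ranger 6.1.1 on mm10 per the file headers and labels. Cells were kept between the 2nd and 97th percentile of detected genes and of UMIs, with at most 15% of UMIs from mitochondrial genes, and the 8% in each pool that Scrublet (in scanpy 1.11.5, Python 3.11.15) scored highest were dropped as likely doublets. Sums used pandas 2.3.3, SciPy 1.17.1 and NumPy 2.4.6. Cells were gated by the percentage of UMIs on marker lists (limits of 0.4 for endothelial, 0.5 for mural and macrophage, 1.5 for lens, 5 for late, 0.3 for early, 0.25 for S-phase, 0.1 for G2/M, Hes5 and resting), with at least 3 genes of a cell type's list. LECs needed other cell types' lists under 0.25 of their limits, and cells positive for cell cycle lists were left out of the late and early gates. The limits were set after seeing the distributions of the marker sums. The 10 genes and the lists were chosen with earlier results of these data known.

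The sums of each gate in each pool went into edgeR 4.0.16 (limma 3.58.1, R 4.3.3), where filterByExpr removed genes of low count, TMM set the scaling, pool was a blocking term, and quasi-likelihood p-values were adjusted by Benjamini-Hochberg at 0.05. Both gates of every comparison come from the same animals, so the pool pairs them. No p was adjusted over a list alone. On simulated data with 200 changed genes, the fit of LEC gates recovered 173 with 10 false calls among 12327 unchanged genes, and the fit of cell types 137 with 3 among 7785. The simulated gates shared the same mean profile and a common spread, and only the early or the endothelial gate was changed. Real gates differed in many more genes, so these counts need not hold for them. From pathway lists, counts are given, with up to 5 genes per comparison by size of change (past 0.05, same direction in both pools, 20 CPM or more in either gate). The 11 receptors are shown as a whole list, and some counts of named genes in other cell types were added for comparison after their values were seen. Alternatives were DESeq2 1.42.0, no filter, no replicate block, no doublet removal, limits 1.5 times higher or lower, thinning to 3000 UMIs (17577 cells), upper quartile factors, each pool left out and, chosen after seeing the data, no scaling factors. Figures were drawn with matplotlib 3.10.9. Intervals are exact and at 95%.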

Additional observations from a re-analysis of the deposited data

How the results depend on the processing

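Over 81 comparisons of single members and the 9 alternatives with a test, 682 of 729 values kept their direction and their side of the threshold, 34 lost a call, 12 gained one, and 1 reversed (Sostdc1 in late against early LECs, 0.26 with gate limits 1.5 times lower). Of 62 called member comparisons, 53 were called by DESeq2, 54 after thinning and 56 without the replicate block. With 1 pool there are no residual degrees of freedom, so single-pool values carry no test. Their signs matched the main fit in 152 of 162 cases, and 30 of them lay further from its estimate than the SD of the pools. Single-pool values were log2 ratios with a prior count of 2, unlike the fitted estimate. The count of 30 therefore also reflects this change of estimator and does not measure disagreement between pools. Sostdc1 was not called in endothelial cells or mural cells against LECs by DESeq2 (adjusted p = 0.18 and 0.38). Counts of all genes called fell after thinning each cell to 3000 UMIs to 3620 in early against resting LECs (5530 otherwise), 3256 in late against early LECs (5824), 479 in Hes5-high against resting LECs (769), 4085 in endothelial cells against LECs (6189) and 2321 in mural against endothelial cells (3519). Fewer genes passed the filter after thinning (11361 against 12896 between LEC gates and 7382 against 9835 between cell types). DESeq2 called 4024 genes in G2/M (6039 with edgeR) and 508 in Hes5-high cells, where 282 were called without the replicate block and 503 with limits 1.5 times lower. Plain CPM, tried after seeing the data, gave 8954 calls in late against early LECs. The causes were not tested. Bmp4, with 27 UMIs, is limited by depth.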
